A study of Mus musculus with 2 samples.

Results

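In the left cerebral cortex of mice, 762 accessible regions met the sequence criteria of a CpG island and lay far from every annotated gene start. They were chosen among 51642 DNase-seq peaks of replicate 1 that overlapped a peak of replicate 2, of 69208 peaks in replicate 1 and 69128 in replicate 2. A peak was taken when its centre lay over 2 kb from the start of every transcript of the mouse GENCODE M21 annotation, and when the 500 bp around the centre had a GC share of 55% or more and an observed to expected CpG ratio of 0.6 or more. They are called distal islands here, and they made up 2.97% of the 25618 shared peaks that lay as far from a start. Each peak counts as 1 island, although some overlap or share a stretch of CpG-rich sequence. Merged where they overlapped or touched, the 762 made 731 regions, and they lay in 659 separate CpG-rich stretches. The name stands for base composition only, since no methylation or histone mark was measured.

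DNase-seq maps the DNA that the nuclease DNase I can cut in nuclei. Both libraries came from left cerebral cortex tissue of female B6CASTF1/J mice aged 36 days, an F1 hybrid of the B6 and CAST strains, with 1 library per animal. The labels number the animals separately under a shared donor entry. The libraries form 1 group with no treatment and no second condition, so every value below describes these 2 libraries and none carries a test between conditions.

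CpG islands are stretches of DNA in which the CpG dinucleotide has been kept, while it has been lost from most of the genome because methylated cytosine mutates readily. Most known islands lie at promoters, stay unmethylated and are nucleosome-poor, and the proteins that bind them often recognise motifs that contain CpG. Islands away from annotated promoters, often called orphan islands, are known to include promoters of unannotated transcripts, alternative promoters within genes and elements that contact developmental genes.

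The tissue label was set against open promoters. All 10 listed markers of cortical excitatory neurons had a shared peak within 1 kb of a start, against 0 of 5 microglial markers, 1 of 5 hepatocyte markers (Apob) and 2 of 5 skeletal muscle markers (Ckm and Actn3). Astrocyte markers were open in 4 of 5, and markers of interneurons and of the oligodendrocyte lineage in 2 of 5 each. The tissue holds many cell types, and a peak open in few cells and one partly open in many cannot be told apart.

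The sequence of 7 distal islands shows what the criteria select and which motifs recur. All are read on the forward strand of mm10 (GRCm38, sequence from RefSeq), 5′ to 3′, and each is the whole peak of replicate 1. For the islands near Ptma and in Cacna1b, capitals mark every CpG. Ptma encodes prothymosin alpha, a nuclear protein that binds histones, and Cacna1b the pore of N-type calcium channels.
Ptma, chr1:86487461-86487700, intergenic: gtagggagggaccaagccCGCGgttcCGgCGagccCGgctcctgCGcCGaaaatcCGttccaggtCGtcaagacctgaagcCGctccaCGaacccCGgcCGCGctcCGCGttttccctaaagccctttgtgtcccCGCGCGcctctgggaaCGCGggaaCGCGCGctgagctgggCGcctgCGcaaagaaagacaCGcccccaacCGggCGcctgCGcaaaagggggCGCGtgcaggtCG
Cacna1b, chr2:24679061-24679320, centre in a coding exon: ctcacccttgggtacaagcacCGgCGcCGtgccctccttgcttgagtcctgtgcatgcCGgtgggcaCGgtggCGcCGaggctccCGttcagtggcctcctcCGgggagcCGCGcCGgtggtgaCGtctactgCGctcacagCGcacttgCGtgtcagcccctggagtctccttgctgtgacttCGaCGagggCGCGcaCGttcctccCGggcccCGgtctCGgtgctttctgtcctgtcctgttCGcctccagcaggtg
The Ptma island holds 33 CpG in 240 bp and the Cacna1b island 25 in 260 bp.

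In 4 further islands, capitals mark a match to a binding motif. The island near Foxk1 holds overlapping matches to the motif of NRF1, a regulator of nuclear genes for mitochondria. The island near Chd2 holds a match to the motif of CTCF, the protein that anchors chromatin loops. The island near Sema3b holds TGACGTCA, the cAMP response element bound by CREB, and the island near Fos holds the reverse complement of GGGCGGG, the box of SP and KLF factors.
Foxk1, chr5:142367341-142367560, intergenic: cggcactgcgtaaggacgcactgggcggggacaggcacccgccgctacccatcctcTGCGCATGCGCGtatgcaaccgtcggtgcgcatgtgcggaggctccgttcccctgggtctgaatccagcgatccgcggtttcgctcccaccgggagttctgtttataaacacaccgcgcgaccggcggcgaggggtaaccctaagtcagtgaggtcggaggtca
Chd2, chr7:73618421-73618640, intergenic: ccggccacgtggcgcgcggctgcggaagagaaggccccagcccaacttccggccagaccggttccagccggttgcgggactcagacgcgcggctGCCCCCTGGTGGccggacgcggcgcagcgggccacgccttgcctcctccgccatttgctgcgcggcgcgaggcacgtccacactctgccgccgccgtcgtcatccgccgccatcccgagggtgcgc
Sema3b, chr9:107612721-107612900, intergenic: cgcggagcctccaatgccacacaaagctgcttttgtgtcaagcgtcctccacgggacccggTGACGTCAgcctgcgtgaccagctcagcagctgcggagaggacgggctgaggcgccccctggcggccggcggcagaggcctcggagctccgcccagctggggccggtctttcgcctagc
Fos, chr12:85455381-85455640, intergenic: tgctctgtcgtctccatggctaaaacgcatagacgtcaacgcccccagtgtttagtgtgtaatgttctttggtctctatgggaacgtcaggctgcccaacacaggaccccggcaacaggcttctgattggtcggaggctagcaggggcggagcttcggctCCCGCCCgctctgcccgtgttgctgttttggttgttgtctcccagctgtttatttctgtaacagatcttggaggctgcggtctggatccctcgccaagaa
The last island near Mrtfb lies in an intron of the noncoding gene Gm15738, and capitals mark the bases of the threonine tRNA gene n-TTcgt5, which RefSeq places on the forward strand.
Mrtfb, chr16:13437201-13437420, intron: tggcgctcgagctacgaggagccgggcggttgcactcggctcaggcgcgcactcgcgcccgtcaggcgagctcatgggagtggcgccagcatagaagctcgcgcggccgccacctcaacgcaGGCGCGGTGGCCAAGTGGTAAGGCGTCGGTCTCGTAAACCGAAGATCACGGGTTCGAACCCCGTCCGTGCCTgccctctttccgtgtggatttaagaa
Islands in no gene are named by the nearest protein-coding start, which need not be the gene they act on.

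Distal islands were more accessible than other distal peaks and less than CpG-rich promoter peaks. Peak height is the authors' own value with a factor per library that is not stated, so heights were compared within a library. The median height of distal islands was 1.93 in replicate 1 and 1.36 in replicate 2. The other 24856 shared distal peaks had medians of 1.22 and 0.954, and the 15005 shared CpG-rich peaks within 2 kb of a start had 3.03 and 2.20. The ratio of medians to other distal peaks was 1.59 in replicate 1 and 1.43 in replicate 2, a mean of 1.51 ± 0.112 (SD, n = 2 libraries), and the ratio to CpG-rich promoter peaks was 0.628 ± 0.0116. Both ratios lay on the same side of 1 in each library, further from it than the spread between the libraries. Of the distal islands, 539 (70.7%) stood above the median height of the list in both libraries, against 43.8% of all shared distal peaks. Their heights ran from 0.146 to 17.9 in replicate 1 and from 0.146 to 9.07 in replicate 2, with 80% of them between 0.876 and 6.04 in replicate 1.

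The open stretch around distal islands was wide. The median peak width was 255.5 bp in replicate 1 and 266 bp in replicate 2, against 180 and 200 bp in other distal peaks and 260 and 280 bp in CpG-rich promoter peaks. The authors also deposited false discovery rates of the cut rate, listed where they are under 0.05. Of the 1000 bp around the centre, a median of 778 bp (replicate 1) and 774.5 bp (replicate 2) lay under that rate in distal islands. The medians were 356 and 406.5 bp in other distal peaks and 882 and 911 bp in CpG-rich promoter peaks. The whole 1000 bp lay under 0.05 in both libraries in 10.8% of distal islands, 0.467% of other distal peaks and 24.5% of CpG-rich promoter peaks.

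**Figure D1:**
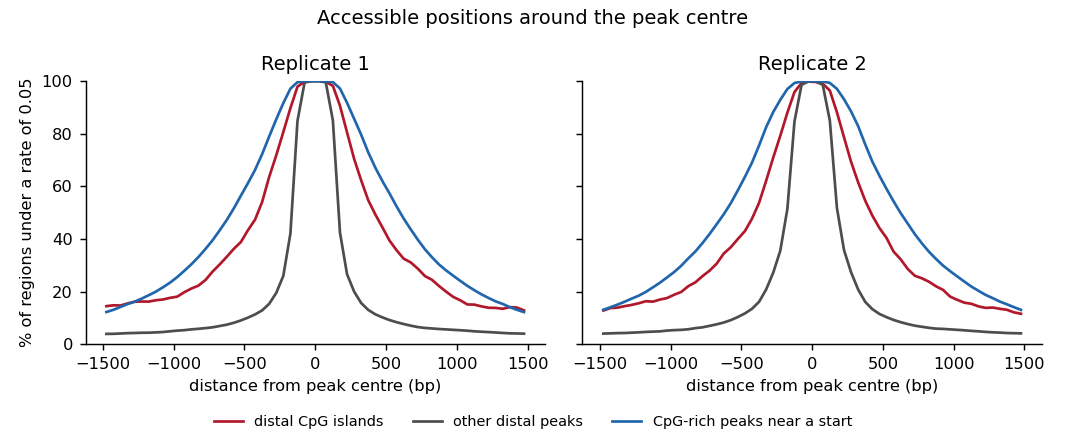
Percentage of regions (y axis) whose position lay under a false discovery rate of 0.05, against the distance from the peak centre in bp (x axis), for each library. Lines are the 762 distal islands, 24856 other distal peaks and 15005 CpG-rich peaks near a start; the line of distal islands runs between the other lines over most of the range and is far wider than that of other distal peaks.

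The highest distal islands lay mostly between genes. The highest of all was at chr6:47650761-47650980 with heights of 17.9 and 9.07. Its nearest coding start, 55530 bp away, was that of Ezh2, the methyltransferase of Polycomb repressive complex 2. A RefSeq start of Gm40371 lay 433 bp away. In that peak 51.4% of the bases were soft-masked as repeat and 24.9% of its 32-mers occurred elsewhere in the genome, and the part of other copies in its height was not tested. By the geometric mean of both libraries the Ptma island followed with 14.9 and 8.87, and then the Foxk1 island with 14.9 and 7.40. An island in a noncoding exon of A430078I02Rik came next, with 12.2 and 8.57 (chr6:86472201-86472480). An island near Pum2, a translational repressor, had 14.7 and 6.96 (chr12:8640961-8641180), and the Mrtfb island over the tRNA gene had 14.6 and 6.63. All of these stood higher in replicate 1 than in replicate 2, as did the median peak of the lists.

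Other islands among the 15 highest lay near genes of several kinds. The Chd2 island, near the gene of a chromatin remodeller, had 13.6 and 7.09. An island in a noncoding exon of Gm14486 had 13.8 and 6.67 (chr2:30658501-30658740). In an intron of Gm20388, near the autophagy gene Map1lc3b, the heights were 10.9 and 7.64 (chr8:121585441-121585720). Near Zfp239, a zinc finger gene, they were 10.2 and 7.38 (chr6:117879581-117879700), and that island lay 8 bp from the start of the RefSeq transcript Gm38882. Near Ppp1r1b, which encodes the phosphatase inhibitor DARPP-32, they were 13.3 and 5.44 (chr11:98342661-98342880). Near Trpv4, a cation channel gene, they were 9.93 and 6.50 (chr5:114667621-114667780), and near Kcnn1, a calcium-activated potassium channel gene, 8.76 and 7.16 (chr8:70865501-70865960). The Kcnn1 island lay 2473 bp from the nearest GENCODE start but 40 bp from a RefSeq start of Kcnn1. The remaining islands of this group overlapped tRNA genes.

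Exons held a larger share of distal islands than of other distal peaks. Centres lay in a coding exon in 173 of 762 (22.7%, 95% Wilson interval 19.9% to 25.8%, counting error only), against 2.55% of all shared distal peaks. A further 29 lay in an untranslated region, 16 in a noncoding exon, 157 (20.6%) in an intron and 387 (50.8%) between genes. In all, 28.6% (25.5% to 31.9%) lay in an exon of some kind, against 6.12% of all shared distal peaks. Many lay near the end of a gene: 183 (24%) were within 2 kb of the end of a protein-coding transcript, against 7.69% of all shared distal peaks. Of the 173 islands in coding exons, 117 (67.6%) were that close to an end, and of the 481 other distal peaks in coding exons, 36.2%. The other distal peaks did not meet the sequence criteria, so these shares do not compare islands with eligible sequence. Among distal genome tiles that met the criteria and were mostly not repeat, 22.4% of 848 in coding exons met a shared peak. The share was 30.5% in other exons, 28.6% in introns and 41.1% between genes. Eligible sequence in coding exons was thus accessible less often than that between genes.

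Islands in coding exons were lower than those between genes and held GGGCGGG, the box of SP and KLF factors, less often. Their median height was 1.42 in replicate 1 and 1.09 in replicate 2, and that of intergenic islands was 2.49 and 1.65. Islands in introns lay between, at 1.87 and 1.28. Coding islands were wide all the same, with medians of 290 and 280 bp against 240 and 271 bp in intergenic islands, and CpG-rich sequence ran over a median of 1200 bp around them against 950 bp. A GGGCGGG match was found in 14.5% of coding, 46.5% of intronic and 42.1% of intergenic islands. Footprints per kb of peak numbered 13.6 and 12.1 in coding islands and 16.0 and 14.2 in intergenic ones. The plot of heights by position shows that the ranges overlapped throughout.

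**Figure D2:**
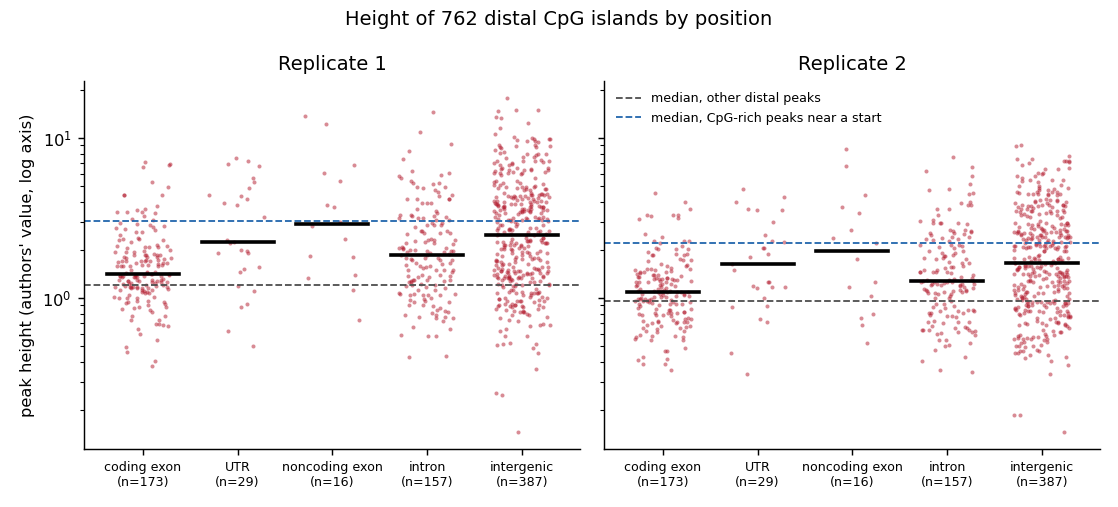
Peak height (authors' value, log axis) of each of the 762 distal islands in replicate 1 and replicate 2, by the position of the peak centre (x axis). Points are islands, black bars group medians, and dashed lines the medians of other distal peaks and of CpG-rich peaks near a start; the bar of coding exons is the lowest of the 5 in both libraries.

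The islands farthest from any start and those in the longest CpG-rich run were below the median height of all distal islands in replicate 1. The farthest lay 135990 bp from a start (chr2:172728301-172728400, nearest coding gene Tfap2c, a transcription factor gene), with heights of 0.486 and 0.421. The next both lay in coding exons of Rims1, which encodes a scaffold of the presynaptic active zone. The first, at chr1:22533812-22534197, was 101162 bp from a start and had 0.949 and 0.819. The second, at chr1:22533161-22533740, was 100608 bp away and had 1.29 and 1.11. The longest CpG-rich run, 4700 bp, lay in the coding exon of Tchh, the gene of trichohyalin, a structural protein of hair follicles. This exon held 7 of the peaks counted as distal islands, some of which overlapped one another. Their heights were 0.407 to 1.70 in replicate 1 (median 0.730) and 0.387 to 1.45 in replicate 2 (median 0.780). Only 3 of the 7 held a footprint in replicate 1 and 5 in replicate 2.

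Across the 762 islands, height was only weakly related to the measures of sequence and distance that chose them. Spearman's rho with height in replicate 1 and replicate 2 was 0.0642 and 0.0477 for observed to expected CpG, -0.0455 and -0.0242 for the GC share, -0.104 and -0.0713 for the length of the CpG-rich run and -0.00493 and -0.0294 for the distance to a start. For the number of footprints in replicate 1 it was 0.457 with height in replicate 1, where both are read from the same cuts. With height in replicate 2 it was 0.458. These are descriptions over islands, which share 2 libraries. Near starts, by contrast, CpG-rich peaks with an observed to expected CpG of 0.85 or more had medians of 3.67 and 2.57, and those of 0.6 to 0.7 had 2.02 and 1.57. The same classes of distal islands had 1.84 and 1.33 (200 islands) and 1.80 and 1.38 (248 islands).

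Peaks just outside the criteria had median heights near those just inside. With an observed to expected CpG of 0.60 to 0.62, the 75 islands had median heights of 1.93 and 1.24, and the 68 distal peaks of 0.58 to 0.60 had 1.83 and 1.17. The 70 islands with a GC share of 55% to 57% had 2.20 and 1.41, and the 94 peaks of 53% to 55% had 1.95 and 1.35. At this limit the share in coding exons differed, with 14.3% inside and 3.19% outside. The 31 islands from 2000 to 2200 bp from a start had 1.87 and 1.44, and the 46 CpG-rich peaks from 1800 to 2000 bp had 1.54 and 1.26. The set has no sharp edge in height at these limits.

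Many distal islands lay near a transcript start of a second annotation, though over 2 kb from every start of GENCODE M21. RefSeq, the other main annotation of this genome, placed a transcript start within 2 kb of 188 islands (24.7%), against 6.65% of all shared distal peaks. For 42 of them (5.51%, background 0.777%) the start was that of a curated transcript, and for the other 146 (19.2%, background 5.87%) that of a predicted one only. A start placed differently for the same gene counts too. An island in Nup160 lay 2136 bp from the nearest GENCODE start and 1837 bp from a RefSeq start of Nup160. A RefSeq start lay within 1 kb of 135 islands (17.7%, background 4.25%), and their median heights were 2.02 and 1.41. The 574 islands with no RefSeq start within 2 kb had median heights of 1.93 and 1.36, the same as the whole set to 3 digits. A CpG-rich run that also held a GENCODE start was found around 2 of the 762, a number that the distance of over 2 kb and the median run of 1000 bp keep low by construction. The nearest GENCODE start was that of a protein-coding gene for 468 islands (61.4%, background 51.9%). Another shared peak lay within 5 kb of 66.0% of distal islands and of 32.9% of other distal peaks. That peak could be a promoter peak or a further peak of the same CpG-rich run. A start lay 2 to 5 kb from 281 islands (36.9%).

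Of the distal islands, 10 overlapped a tRNA gene (1.31%, background 0.519%), and they were high. Transfer RNA genes are transcribed by RNA polymerase III from promoter elements inside the gene. The 10 islands had a median height of 6.86 (3.76 to 14.6) in replicate 1 and 3.54 (2.24 to 6.63) in replicate 2, against 1.92 and 1.34 in the other 752. The highest were the island over n-TTcgt5, the island over the isoleucine tRNA gene n-TIaat17 with 12.4 and 5.82 (chr17:83861821-83862060), and the island over the asparagine tRNA gene n-TNgtt14 with 11.5 and 6.42 (chr5:149228981-149229220). Between 2.23% and 17.5% of their 32-mers occurred elsewhere in the genome. The lowest of the 10 in replicate 1 overlapped the glycine tRNA gene n-TGgcc3 downstream of Wnt10a, with 3.76 and 2.96.

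Of the distal islands, 4 overlapped an enhancer of the VISTA collection as RefSeq records it (0.525%, background 0.586%), a share near the background. VISTA elements are tested in transgenic mouse embryos. The share with reporter activity in heart was not counted among the 150 shared distal peaks over such elements, so it cannot be compared. All 4 islands fell in elements with that activity. They were an island in a noncoding exon of D830036C21Rik near Fosb with 6.07 and 3.42 (chr7:19320141-19320260), the Wnt10a island over n-TGgcc3, and an overlapping pair near Fos with 5.13 and 4.45 and with 4.30 and 4.45 (chr12:85455121-85455620 and chr12:85455381-85455640). Fos and Fosb encode transcription factors that neurons induce on stimulation. A further 2 islands overlapped other curated enhancers, near Btg2 with 3.70 and 2.94 (chr1:134092981-134093280) and in an intron of Slc2a3, the neuronal glucose transporter gene, with 2.88 and 1.92 (chr6:122764701-122764900).

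Islands were counted by 12 lists of genes, using the gene they lie in or the nearest coding start. The list of patterning factors, meant for genes that set regional and cellular identity in development, was drawn by symbol prefixes such as Fox and Sox. It can therefore hold genes with other roles. Its genes had 36 islands (4.72%, against 1.67% of all shared distal peaks). The highest of them was the Foxk1 island, which lay 34046 bp from the nearest GENCODE start and 1781 bp from the RefSeq start of Gm31068. Islands near Foxe1 had 3.95 and 2.05 (chr4:46304821-46305020), near Neurod2, a factor of cortical excitatory neurons, 3.51 and 2.89 (chr11:98338501-98338720), and near Sox8 2.97 and 2.63 (chr17:25556261-25556860). The median of the 36 was 1.51 and 1.04, below that of all distal islands in both libraries.

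Zinc finger genes of the Zfp series had 30 islands (3.94%, background 1.35%), with medians of 1.95 and 1.35. Besides the Zfp239 island, the highest were in an intron of Zfp13 with 7.41 and 5.13 (chr17:23592741-23592900), near Zfp395 with 7.10 and 4.87 (chr14:65343681-65343860) and in the coding sequence of Zfp771 with 6.82 and 3.99 (chr7:127254021-127254340). Wnt and Frizzled genes, the ligands and receptors of Wnt signalling, had 7 islands (0.919%, background 0.215%). The highest was near Wnt7b with 7.02 and 7.16 (chr15:85634441-85634920). An island near Wnt2b had 6.14 and 3.32 (chr3:104968081-104968240), and one in the coding sequence of Wnt10a had 2.33 and 1.93 (chr1:74803121-74803540). These lists have few members, and a gene with several islands weighs more.

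Potassium channel genes had 11 islands (1.44%, background 1.07%), 9 of them in coding exons. Besides the Kcnn1 island they included one in Kcnk12 with 2.12 and 1.36 (chr17:87745881-87746200) and an overlapping pair in Kcng2 with 1.93 and 1.60 and with 1.68 and 1.60. Axon guidance genes had 10 (1.31%, background 0.949%), among them the Sema3b island with 9.96 and 5.83, which lay near the gene of a secreted semaphorin. An island in an untranslated part of Ntng2 had 3.93 and 1.18 (chr2:29194581-29194780), and an overlapping pair near Robo3 had 1.48 and 1.03 and 1.41 and 0.909. Sema3b lay far above the list's medians of 1.24 and 0.805.

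Genes of synapses and ion channels otherwise held shares close to the background. Glutamate and GABA receptor genes had 5 islands (0.656%, background 0.578%). They included islands in an untranslated part of Grik5 with 2.25 and 1.81 (chr7:25010101-25010360), in an intron of Grik4 with 1.964 and 1.12, in the coding sequence of Grm5 with 1.01 and 0.914 and in that of Gabbr2 with 0.876 and 0.987. Synaptic scaffold and adhesion genes had 4 (0.525%, background 0.648%). They were in an intron of Dlg4, the gene of PSD-95, with 4.91 and 4.46 (chr11:70021441-70021720), in an untranslated part of Shank1 with 6.69 and 4.0 (chr7:44360061-44360220), in the coding sequence of Dlgap3 with 1.75 and 1.26, and near Nlgn3 on the X chromosome with 1.49 and 2.09. Calcium and sodium channel genes had 3 (0.394%, background 0.558%), all in coding exons of Cacna1b (1.19 and 0.898), Scnn1a (1.28 and 1.21) and Scn8a (1.60 and 1.15). Signalling scaffolds and kinases had 3 (0.394%, background 0.621%), in Mapk8ip1 (3.29 and 3.32) and Sptbn4 (8.29 and 5.81, and 2.01 and 1.37).

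Imprinted genes, which are expressed from 1 parental copy, had 2 islands (0.262%, background 0.273%). An island near Trappc9 had 6.89 and 6.81 (chr15:73067681-73067860), and one in an untranslated part of H13 near Mcts2 had 2.22 and 2.06 (chr2:152707601-152707940). The lists do not separate the alleles of the F1 mice. Clustered protocadherins had 0 islands (background 0.0234%) and collagens and matrix genes had 0 (background 0.566%).

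Some genes had several islands around them. Chosen after the counts were seen, Bcor on the X chromosome, a corepressor gene and part of a Polycomb complex, was the nearest coding gene of 21 shared distal peaks, of which 14 were distal islands. Of these islands, 8 lay in an intron of Bcor. Heights of the 14 were 0.803 to 2.06 in replicate 1 (median 1.13) and 0.466 to 1.45 in replicate 2 (median 0.917), with both medians below those of all distal islands. Kdm6b, the gene of a histone demethylase that opposes Polycomb, had 5 of 8, with medians of 3.09 and 2.66. Scrt1, a neuronal repressor gene, had 5 of 5, with medians of 1.94 and 1.30. Tbr1, a factor of deep-layer cortical neurons, had 4 of 7, with 1.02 to 1.42 in replicate 1 and 0.870 to 1.08 in replicate 2. Acot11, Aspdh, Pdia4, Psd2, Tln2 and Tnrc18 had 4 islands each too, so the genes described here are examples.

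Distal islands carried several motifs typical of promoters more often than other distal peaks did. Motifs were searched on both strands in 300 bp around the centre. GGGCGGG, the SP and KLF box, was found in 275 islands (36.1%), against 6.48% of all shared distal peaks and 51.1% of CpG-rich promoter peaks. GCGNGGGCG, the motif of EGR factors, which can overlap the SP box, was found in 120 (15.7%, background 1.1%), close to the 16.2% of promoter peaks. CCGGAAG of ETS factors was found in 66 (8.66%, background 2.31%), the NRF1 motif in 37 (4.86%, background 0.48%), TGACGTCA in 15 (1.97%, background 0.589%) and CTCGCGAG of ZBTB33 in 10 (1.31%, background 0.0742%). For ETS, NRF1, TGACGTCA and CTCGCGAG the share of islands lay between those of other distal peaks and of CpG-rich promoter peaks. CACGTG, the E-box of MYC and CLOCK, was found in 98 (12.9%, background 6.44%) and in 9.92% of promoter peaks.

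Some motifs common at other distal peaks were scarce in islands. TGANTCA of AP-1 was found in 35 islands (4.59%, background 15.1%), CAGATGG, an E-box of neuronal factors such as NEUROD, in 33 (4.33%, background 15.3%), and the CTCF motif in 18 (2.36%, background 12.4%). The shares in CpG-rich promoter peaks were 2.61%, 2.83% and 0.766%. GCCAAT of NFY was found in 80 (10.5%), close to the background of 10.4% and below the 15.7% of CpG-rich promoter peaks. AANATGGCG of YY1 was found in 10 (1.31%, background 0.628%), against 5.46% of CpG-rich promoter peaks. ACAATGG of SOX factors was found in 16 (2.10%, background 3.17%), the NFI motif in 4 (0.525%, background 1.17%), the RFX motif in 2 (0.262%, background 0.25%) and the MEF2 motif in 2 (0.262%, background 0.835%). The motif of REST, a repressor of neuronal genes, was found in 0, which allows a share of up to 0.502% by the Wilson interval (background 0.0312%). These sets differ in GC share by construction, and its part in the motif shares was not tested here.

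Closed CpG-rich sequence that met the same criteria was searched too. Among 500 bp tiles of the genome that met these criteria, were under 50% repeat and met no peak of any deposited list, 1098 served as closed islands. They were not matched to the accessible islands on GC share, CpG ratio or position. They held GGGCGGG in 19.1%, GCGNGGGCG in 4.92%, CCGGAAG in 3.83%, NRF1 in 1.37%, TGACGTCA in 0.546%, GCCAAT in 5.46% and CTCF in 0.182%. Each of these shares was lower than in distal islands and lay below the Wilson interval of the islands' share. Accessible islands in coding exons alone held GGGCGGG in 14.5%, less often than closed islands, and the part of position in these shares was not tested. CAGATGG was found in 7.65% of closed islands, more than in accessible ones. TGCCGC, the core of the ZFP57 motif, was found in 209 accessible islands (27.4%, background 7.8%) and in 20.1% of closed ones.

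**Figure D3:**
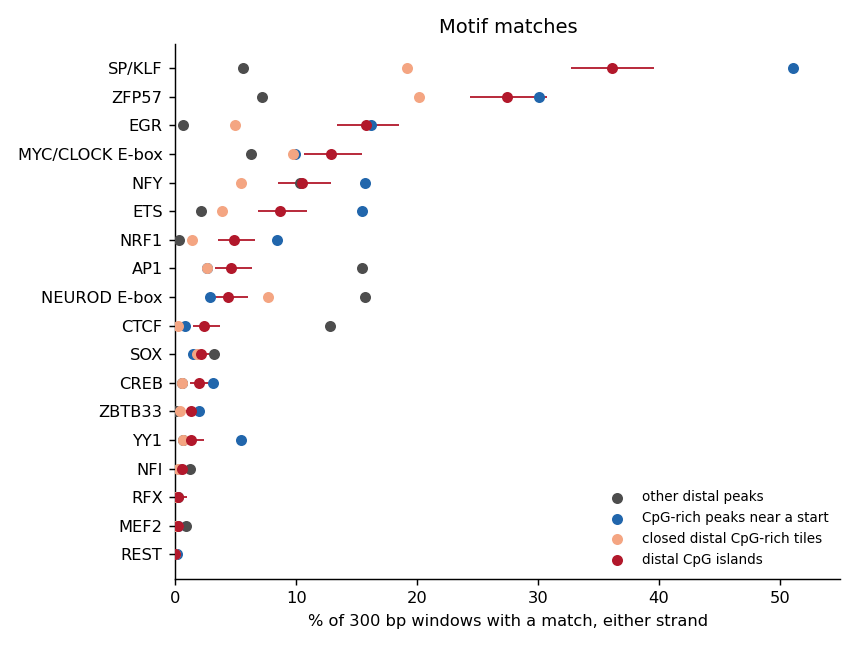
Percentage of 300 bp windows (x axis) with a match to each of 18 motifs (y axis) in distal islands (with 95% Wilson intervals), other distal peaks, CpG-rich peaks near a start and closed distal CpG-rich tiles under 50% repeat. SP/KLF stands at 36.1% in distal islands between 5.57% in other distal peaks and 51.1% in CpG-rich peaks near a start, while CTCF stands at 2.36% against 12.8% in other distal peaks.

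Islands with certain motifs were higher than those without. The 15 with TGACGTCA had median heights of 4.92 and 2.97, the 37 with an NRF1 match 3.61 and 2.40, and the 18 with a CTCF match 4.08 and 1.88, where islands without the given motif had 1.89 to 1.90 in replicate 1 and 1.33 to 1.34 in replicate 2. The 275 with GGGCGGG had 2.24 and 1.62 against 1.74 and 1.27. Matches were also set against the authors' footprints, short stretches protected from cutting within a peak. Of 18 CTCF matches in islands, 94.4% overlapped a footprint in each library, against 98.3% and 97.3% over all shared distal peaks. Of 45 NRF1 matches it was 82.2% and 75.6%, against 90.5% and 84.8%. The NRF1 shares were below those of all distal peaks, while the CTCF share, 17 of 18 matches in each library, was close to them. Of 18 TGACGTCA matches it was 88.9% in each library, against 62.2% and 69.2%. Of 426 GGGCGGG matches it was 57.5% and 48.8%, against 55.1% and 47.2%, and of 70 CCGGAAG matches 35.7% and 28.6%, against 28.2% and 23.8%. In CpG-rich promoter peaks the shares were 91.2% and 91.6% for TGACGTCA and 92.0% and 92.6% for NRF1. They were 63.0% and 58.4% for GGGCGGG and 46.3% and 48.4% for CCGGAAG there. For NRF1, GGGCGGG and CCGGAAG islands thus lay below promoter peaks in both libraries. For TGACGTCA, with 16 of 18 matches in a footprint, they were close to promoter peaks. A match names letters in a window and not a bound protein.

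Nearly all distal islands held a footprint. At least 1 overlapped the 300 bp around the centre in 96.6% of islands in replicate 1 and 95.5% in replicate 2, and in both libraries in 718 (94.2%, against 96.3% of all shared distal peaks). The mean number was 4.44 and 4.09 per island, against 3.22 and 3.02 in other distal peaks and 4.69 and 4.48 in CpG-rich promoter peaks. Per kb of peak the numbers were 15.4 and 13.8 in islands and 15.2 and 13.8 in other distal peaks. The most in sum were found near Smad7, an inhibitor of TGF-beta signalling, with 10 and 8 (heights 3.11 and 2.12), near Wnt7b with 9 and 9, and in several islands with a sum of 1 fewer, among them the Ptma island with 8 and 9. Another 16 islands held none in either library.

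Heights of distal islands were alike in the 2 animals. For the 623 islands matched to exactly 1 peak of replicate 2 that met no other peak, Spearman's rho of the heights was 0.937, against 0.820 in other distal peaks and 0.957 in CpG-rich promoter peaks. The log2 ratio of heights, replicate 2 over replicate 1, was centred on its median over all shared peaks. Its SD was 0.377 in islands, 0.551 in other distal peaks and 0.299 in CpG-rich promoter peaks. Since islands were higher than other distal peaks, both sets were also compared at like height. In 4 classes of equal numbers of islands by the geometric mean of both heights, from the lowest up, the SD was 0.340 against 0.439, 0.363 against 0.540, 0.386 against 0.536 and 0.388 against 0.414. The difference in spread was smallest among the highest peaks.

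**Figure D4:**
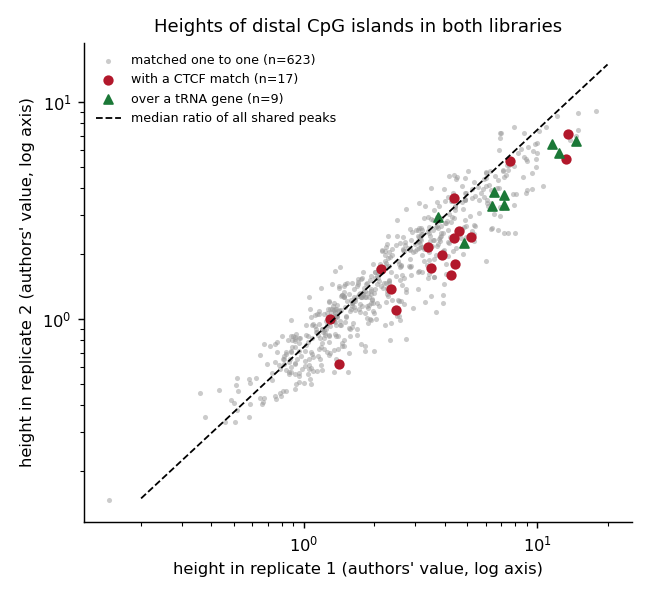
Peak height in replicate 2 (y axis) against replicate 1 (x axis), authors' values on log axes, for the 623 distal islands matched one to one; triangles mark the 9 of these over a tRNA gene and large dots those with a CTCF match, and the dashed line is the median ratio of all shared peaks. Of the 17 islands with a CTCF match, 14 lie below the line.

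Islands leaned slightly to replicate 1. The median centred log2 ratio was -0.109, and 387 of 623 islands (62.1%) lay below 0, against 48.6% of other distal peaks and 56.5% of CpG-rich promoter peaks. At like height the order turned among the higher peaks. In the 4 height classes, from the lowest up, the median ratio was -0.08, -0.02, -0.13 and -0.18 in islands, and 0.20, 0.01, -0.42 and -0.68 in other distal peaks. Higher distal peaks outside the set thus leaned further to replicate 1 than islands did. Islands with a CTCF match had a median of -0.51 and 14 of 17 below 0, and other distal peaks with a CTCF match had -0.58 and 83.6% below 0, so the lean at this motif was found in both sets. Among islands above the median height, the lowest centred log2 ratios were -1.35 near Casz1 (3.69 and 1.08), -1.31 in Ntng2, -1.28 near Cryba4 (6.03 and 1.85), -1.27 near Bahd1 (8.01 and 2.48) and -1.19 in an intron of Ltbp4 (3.93 and 1.28). The highest were 0.65 near Ssc4d (2.74 and 3.20), 0.63 near Npas4 (3.50 and 4.03), 0.61 near Adgrb1 (2.51 and 2.85), 0.57 near Kdm6b (3.09 and 3.42) and 0.55 in an intron of Mrps27 (4.17 and 4.54). Npas4 encodes a transcription factor that neuronal activity induces, and its island lay 1568 bp from a RefSeq start of Npas4. With 1 library per animal these differences have no replicate check.

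Most CpG-rich tiles far from starts met no shared peak, and repeats made up a large part of them. Of 5114 tiles of 500 bp that lay over 2 kb from every start and met the sequence criteria, 763 (14.9%, 95% Wilson interval 14.0% to 15.9%) met a peak called in both libraries. Over all distal tiles the share was 0.717%, and among CpG-rich tiles near a start it was 71%. Repeats divided the distal tiles. Of the 2680 that were soft-masked over 50% or more of their length, 4 (0.149%) met a shared peak, and of the 2434 others, 759 (31.2%, interval 29.4% to 33.1%). How reads in repeats were mapped is not given in the sources used here. Repeat tiles without a peak, which are part of the 14.9%, therefore cannot be called closed. Under 50% repeat, 1098 of the 2434 met no peak of any deposited list.

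Among distal CpG-rich tiles under 50% repeat, position and CpG content moved with the accessible share. It was 41.1% between genes (37.9% to 44.3%), 28.6% in introns (25% to 32.5%) and 22.4% in coding exons (19.7% to 25.3%). It was 22.7% at an observed to expected CpG of 0.6 to 0.7, 36.9% at 0.7 to 0.85 and 41.2% at 0.85 or more, and near starts it was 57.5% in the first of these classes and 79.9% in the last. The distance to a start made little difference, with 29.8% at 2 to 5 kb, 33.2% at 5 to 20 kb, 28.4% at 20 to 50 kb and 32.5% of 77 tiles beyond 50 kb, and the intervals of these classes overlapped. On the X chromosome the share was 35.7% of 70 tiles (25.5% to 47.4%), against 31.4% on the autosomes.

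**Figure D5:**
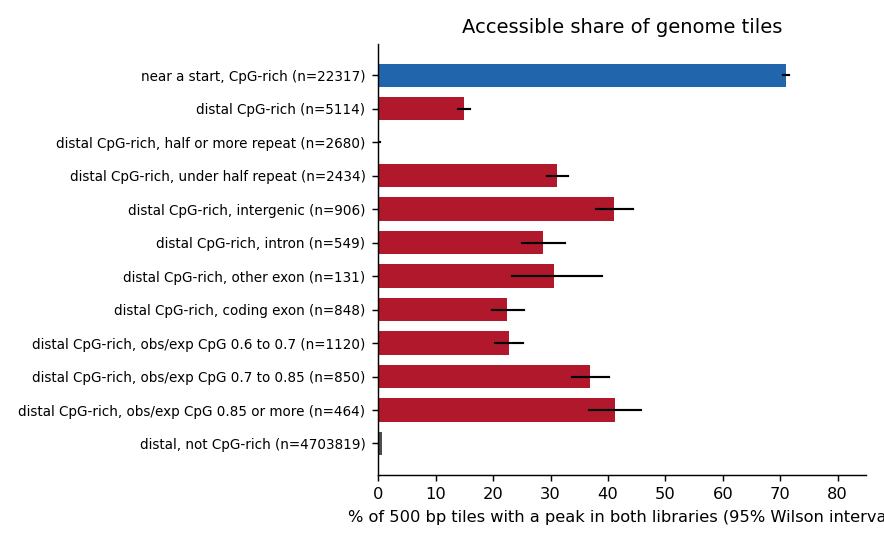
Percentage of 500 bp genome tiles that met a peak called in both libraries (x axis from 0), by sequence class, repeat share, position and observed to expected CpG (y axis, with the number of tiles). Black lines are 95% Wilson intervals; distal CpG-rich tiles stand at 14.9% in all and at 31.2% under 50% repeat, against 71% near a start.

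A few distal islands lay in sequence that occurs more than once in the genome. In 24 (3.15%) most of the 32-mers were found elsewhere, against 0.841% of other distal peaks and 0.70% of CpG-rich promoter peaks. They included 4 peaks near Ezh2 and Pdia4 on chromosome 6, with a median of 14 or 15 copies per 32-mer and heights up to 7.17 and 4.49. They also included the 2 islands on the Y chromosome (9.50 and 3.98 for the higher, chrY:90744581-90744820), which lie in libraries from female mice and of whose 32-mers 88.1% and 62.1% occurred elsewhere. On the X chromosome, 2 islands within Mid1 belonged to the same group, with all of their 32-mers repeated. For these islands the genomic copy that was cut cannot be told apart.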

How the data were processed

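DNase-seq libraries of 2 mice were used. Peak heights are a signal that the authors deposited per library in mm10 peak lists. How heights were scaled, and which aligner and caller made the lists, is not given in the sources used here. Replicate 1 and replicate 2 heights were whole multiples of 0.00608 and 0.00561 (tolerance 0.05 of a step), and the median distal island was worth 317.5 and 243 steps. Depth in reads is unknown. The authors also deposited footprints, of which only positions were used, and a false discovery rate for cutting, handled as a p-value and listed where under 0.05. The shorter of the 2 peak lists of each library was used, with replicate 1 peaks kept where they overlapped a replicate 2 peak by 1 bp or more. Where several replicate 2 peaks overlapped, as for 90 islands, the highest gave the replicate 2 height and width.

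Starts came from GENCODE M21, sequence and other annotation from RefSeq for GRCm38. In the sequence, 59215 of 59255 annotated start codons read ATG. Footprints and motifs were counted in 300 bp. CpG-rich runs were extended in steps of 50 bp, and 32-mers were counted over the genome. Wilson intervals of 95% cover counting error only and treat each island as separate, also where islands overlap. With 1 group of 2 libraries, 0 tests were run. The scripts were tested on simulated data. Python 3.11.15 was used with numpy 2.4.6, pandas 2.3.3, scipy 1.17.1 and matplotlib 3.10.9.

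Named islands were the 15 highest by geometric mean height, the 3 in the longest CpG-rich runs, the 3 farthest from a start, the 5 with the lowest and the 5 with the highest height ratio among those above the median height, the 3 with the most footprints and up to 4 of each of 12 gene lists. Islands over tRNA genes and RefSeq elements, in repeated sequence and by gene were named after their values were seen. The islands and the lists were chosen with earlier results of these data known. The rule names the rows of 1 library without saying which, and replicate 1 was used.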

Additional observations from a re-analysis of the deposited data

How the results depend on the processing

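The number of distal islands, 762, depended on how a start and an island are defined. It was 1256 at 1 kb from a start, 481 at 5 kb, 1442 with protein-coding starts only and 493 with the sequence criteria over 1000 bp. Using 1 library alone gave 881 to 1004. The share in exons was 21.4% at 5 kb and 33.8% with RefSeq starts counted too, and 29.7% to 31.4% with 1 library alone. A footprint was found in a mean of 96.1% of islands per library, in 97.5% at 5 kb, 99.4% among peaks above the median height in both libraries, 97.6% with an overlap of 50% of each peak, 94.9% over the peak itself and 94.0% to 94.7% with 1 library alone. The height ratio to other distal peaks fell to 1.26 among peaks above the median height, and was 1.54 to 1.60 with 1 library alone. The accessible share of distal CpG-rich tiles was 20.1% with the longer lists, 12% at 5 kb, 21.7% at an observed to expected CpG of 0.65, 31.2% under 50% repeat and 16.4% to 18.5% with 1 library alone. The cause of these shifts was not tested. The CTCF share (1.92% to 3.15%) and the SD of the height ratio (0.366 to 0.381) moved little under every alternative run for them, and the SD cannot be computed with 1 library. Counting RefSeq starts, merging overlapping islands and leaving out repeated or tRNA sequence were chosen after seeing the data. No paired analysis was possible because both libraries belong to 1 group.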
